A study of Mus musculus with 6 samples.

Results

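The guanylate-binding protein (GBP) genes *Gbp2*, *Gbp3*, *Gbp4*, *Gbp5*, *Gbp6*, *Gbp7*, *Gbp8* and *Gbp9* were chosen by their symbols, which matched 8 of the 22248 genes listed. They were measured in resting bone-marrow-derived macrophages (BMDMs), which were grown from C57BL/6 bone marrow in medium with macrophage colony-stimulating factor. The control group held 3 libraries of the genotype Lyz2cre, and the CITED2-deficient group held 3 of the genotype Cited2 fl/fl:Lyz2cre. CITED2 is a transcriptional co-regulator that binds p300 and CBP. Both genotypes carried Cre recombinase in the *Lyz2* locus, which drives it in myeloid cells, so the floxed gene was the planned difference between them. Any other difference in mice, culture or library preparation between the groups cannot be told apart from the genotype. The sample labels give an age of 10 weeks for the mice, and the methods of the study give a younger one. The submitters give n = 3 for the mice, but nothing ties a library to a single animal, so the p-values measure the spread between these libraries.

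GBPs are large GTPases of the dynamin superfamily that interferons induce, in part through the factors IRF9 and IRF1. They assemble on the membranes of pathogen vacuoles and on cytosolic bacteria, help to break them open and promote inflammasome activation. Some carry a C-terminal CaaX motif, whose cysteine receives a lipid that anchors the protein to membranes, and recruitment to parasite vacuoles also depends on the proteins that conjugate ATG8.

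In mouse the family lies in a pair of gene clusters. *Gbp5*, *Gbp7*, *Gbp3* and *Gbp2* follow each other on the plus strand of chromosome 3 (chr3:142493978-142638008 in mm10), and *Gbp8*, *Gbp9*, *Gbp4* and *Gbp6* lie on the minus strand of chromosome 5 (chr5:105014150-105293698). Each cluster therefore held 4 members. RefSeq promoter sequences (build GRCm38.p6) were matched for 4 members, *Gbp2*, *Gbp3*, *Gbp5* and *Gbp7*. All 4 had the core letters of an interferon-stimulated response element (ISRE), which are TTTC, any 2 bases and TTTC again, read on either strand. The search covered the 250 bases before each start site, where 2.97% of all 32817 promoters held a match. The 30 bases around the first match are shown for each with the match in capitals, since these genes lie next to each other and all rose.

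Gbp2: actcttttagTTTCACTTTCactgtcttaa
Gbp3: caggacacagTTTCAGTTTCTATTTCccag
Gbp5: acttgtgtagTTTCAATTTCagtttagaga
Gbp7: gtgtgtgcagTTTCAGTTTCagttctccat

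These stretches are chr3:142620594-142620623 for *Gbp2*, chr3:142559989-142560018 for *Gbp3*, chr3:142496759-142496788 for *Gbp5* and chr3:142530273-142530302 for *Gbp7*, all on the plus strand. The matches began 59 bases before the RefSeq start in *Gbp2*, 45 in *Gbp3*, 165 in *Gbp5* and 53 in *Gbp7*. In *Gbp2* the GENCODE vM21 transcript starts further upstream, so the match there lies inside its first exon. The *Gbp5* stretch lies in an intron of a longer GENCODE transcript, and those of *Gbp3* and *Gbp7* lie outside all annotated exons. *Gbp3* has a second match that overlaps the first, which lengthens its run of capitals, and the second of its 2 promoter entries had no match. The letters TTCNNNGAA of an interferon-gamma-activated site (GAS) occurred in *Gbp5* and *Gbp7*, compared with 7.01% of all promoters. In *Gbp5* the GAS matches began 245 and 52 bases before the start. *Gbp7*, the gene with the smallest rise, held a pair of GAS matches next to its ISRE match, all 3 in capitals here (chr3:142530226-142530296, plus strand).

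Gbp7: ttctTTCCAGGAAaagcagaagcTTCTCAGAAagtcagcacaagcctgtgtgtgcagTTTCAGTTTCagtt

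*Gbp5* alone among the matched members held the letters of a kappaB site, GGG, any 2 bases and TTTCC on either strand (1.41% of all promoters), shown with the GAS match downstream of it (chr3:142496854-142496893, plus strand). Such matches are a description of these letters and were not measured as bound sites.

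Gbp5: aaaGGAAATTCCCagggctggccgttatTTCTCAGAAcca

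Values are FPKM, fragment numbers divided by transcript length and scaled to the size of the library. For most genes they convert to whole fragments, and the depth so recovered was 17289286 to 18952077 fragments in control BMDMs and 22583995 to 26100410 in CITED2-deficient BMDMs. *Cited2*, the check of the genotype, was 71.7, 79.3 and 75.5 FPKM in control replicates 1 to 3 and 9.27, 7.22 and 7.53 FPKM in CITED2-deficient replicates 1 to 3. Genes with a mean of at least 1 FPKM over the 6 libraries (11687 genes) were tested with limma on log2(FPKM + 1), with Benjamini-Hochberg adjustment over all of them. Fold changes are CITED2-deficient over control on that scale, which understates the change of low genes. Fragments were therefore also compared with limma-voom, which keeps the count scale.

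The GBP genes were higher in CITED2-deficient BMDMs. All 8 members passed the test (adjusted p under 0.05), all 8 upward, while 51.3% of all tested genes passed in either direction and 16.7% passed upward. The groups did not overlap for any of the 8, against 19.0% of all tested genes that were higher without overlap. A rise of at least 2-fold was reached by 6 members and by 3.72% of all genes. The median log2 fold change was 1.95 over the members and -0.10 over all tested genes. The summed FPKM of the 8 genes was 30.7, 34.7 and 32.4 in control replicates and 145.7, 186.8 and 157.8 in CITED2-deficient replicates. It was on average 5.02 times the control level, and the lowest CITED2-deficient sum was 4.20 times the highest control sum (exact permutation test, two-sided p = 0.1, the smallest that 3 against 3 libraries can give). *Gbp4*, *Gbp6* and *Gbp8* had control means under 1 FPKM and passed the filter only through their CITED2-deficient values, so they had to differ to be tested. The other 5 members had control means of at least 1 FPKM, and 5 of these 5 rose. Bulk RNA cannot tell more transcript per cell from more cells that carry it.

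**Figure D1:**
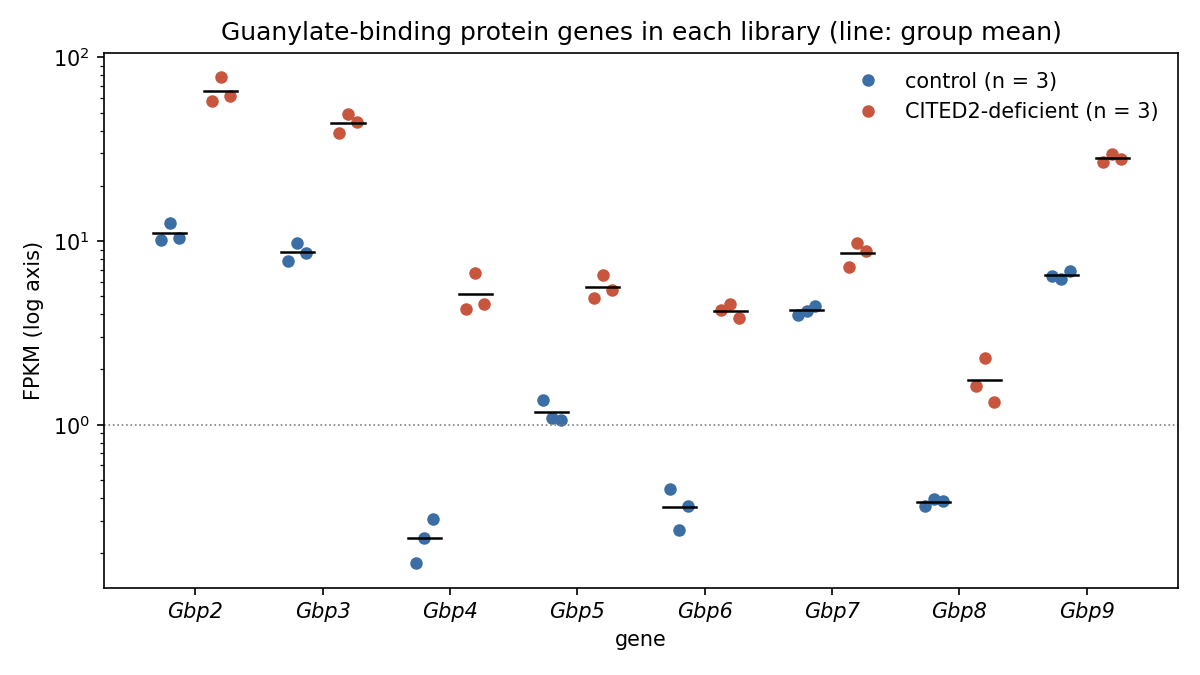
FPKM of the 8 GBP genes (log axis) in each of 3 control (blue) and 3 CITED2-deficient (red) libraries, with group means as lines and a dotted line at the filter of 1 FPKM. The CITED2-deficient points lie above all control points for every gene, and the control points of *Gbp4*, *Gbp6* and *Gbp8* lie under 1 FPKM.

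*Gbp2*, which coats the vacuole of *Toxoplasma gondii*, was the most abundant member per length in both genotypes. It measured 10.1, 12.6 and 10.4 FPKM in control replicates 1 to 3 and 57.9, 78.0 and 61.6 FPKM in CITED2-deficient replicates 1 to 3. The lowest CITED2-deficient library was thus well above the highest control. The means were 11.0 ± 1.36 and 65.8 ± 10.7 FPKM (SD, n = 3 each). *Gbp2* rose by 2.47 on the log2 scale (SE 0.11, limma adjusted p = 2.22e-07), which ranked 51 among all tested genes.

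*Gbp3*, another member recruited to parasite vacuoles, came next in level. It measured 7.77, 9.74 and 8.58 FPKM in control and 38.8, 49.2 and 44.3 FPKM in CITED2-deficient replicates. The groups were far apart, and the rise was 2.22 on the log2 scale (SE 0.10, limma adjusted p = 1.57e-07).

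*Gbp5*, which promotes inflammasome assembly, had a control level just above the filter. Its values were 1.37, 1.09 and 1.06 FPKM in control and 4.90, 6.55 and 5.40 FPKM in CITED2-deficient replicates. The rise was 1.60 on the log2 scale (SE 0.12, limma adjusted p = 7.24e-06).

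*Gbp7*, which has been linked to delivery of the phagocyte oxidase and of autophagy proteins to bacterial vacuoles, was the member that rose least. It measured 3.98, 4.15 and 4.45 FPKM in control and 7.20, 9.82 and 8.78 FPKM in CITED2-deficient replicates. The control libraries were close together, and the highest of them was still below the lowest CITED2-deficient library. The rise was 0.88 on the log2 scale (SE 0.11, limma adjusted p = 0.000141), which ranked 545 among all tested genes.

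On chromosome 5, *Gbp9*, which is also recruited to parasite vacuoles, was the abundant member. It measured 6.46, 6.20 and 6.84 FPKM in control and 26.8, 29.8 and 28.0 FPKM in CITED2-deficient replicates. Its rise of 1.96 on the log2 scale had the smallest standard error of the 8 (SE 0.06, limma adjusted p = 1.97e-08).

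The other 3 genes of this cluster were nearly silent in control BMDMs. *Gbp4* measured 0.176, 0.241 and 0.307 FPKM in control and 4.29, 6.67 and 4.54 FPKM in CITED2-deficient replicates. Behind these values stood 8, 10 and 14 control fragments and 262, 362 and 285 CITED2-deficient fragments. *Gbp4* was thus the member with the fewest control fragments, and it rose by 2.29 on the log2 scale (SE 0.16, limma adjusted p = 3.71e-06).

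*Gbp6* measured 0.447, 0.268 and 0.359 FPKM in control and 4.21, 4.53 and 3.81 FPKM in CITED2-deficient replicates. It rose by 1.93 on the log2 scale (SE 0.12, limma adjusted p = 2.08e-06). *Gbp8*, the least abundant member in CITED2-deficient BMDMs, measured 0.363, 0.396 and 0.384 FPKM in control and 1.63, 2.31 and 1.33 FPKM in CITED2-deficient replicates. The CITED2-deficient values of *Gbp8* were spread more widely than its control values, and its mean of 1.07 FPKM over all libraries was just above the filter. It rose by 0.98 on the log2 scale (SE 0.16, limma adjusted p = 0.00101).

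On the fragment scale, where no pseudocount of 1 FPKM compresses the low genes, the order of the rises was different. All 8 members passed limma-voom upward, against 17.0% of all tested genes, and all 8 rose at least 2-fold. *Gbp4*, *Gbp6* and *Gbp8* were again tested only through their CITED2-deficient values. *Gbp4* rose 20.3-fold (95% confidence interval 10.6 to 38.9) and *Gbp6* 11.6-fold (7.99 to 16.7). The control-expressed members rose 5.93-fold for *Gbp2* (4.92 to 7.16), 5.06-fold for *Gbp3* (4.27 to 6.00), 4.73-fold for *Gbp5* (3.60 to 6.20) and 4.32-fold for *Gbp9* (3.89 to 4.80). *Gbp8* rose 4.33-fold with a wide interval (2.66 to 7.05), and *Gbp7* rose 2.02-fold (1.73 to 2.38). The interval of *Gbp7* lay below those of the other 7 members, and those of *Gbp2*, *Gbp3*, *Gbp5*, *Gbp8* and *Gbp9* overlapped each other, apart from *Gbp2* with *Gbp9*.

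**Figure D2:**
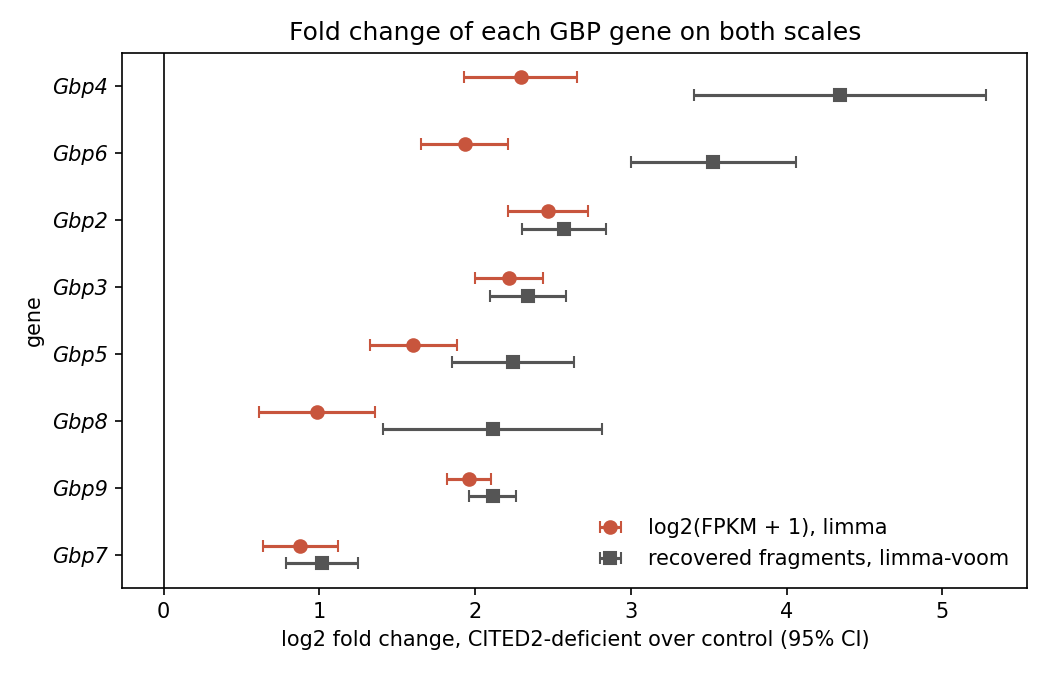
Log2 fold change, CITED2-deficient over control, with 95% confidence intervals for each GBP gene, on log2(FPKM + 1) (circles) and on recovered fragments with limma-voom (squares). *Gbp4* and *Gbp6* move from 2.29 and 1.93 to 4.35 and 3.53 between the scales, while *Gbp7* stays lowest on both, at 0.88 and 1.02.

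The composition of the family was compared within each library, where scaling between libraries cancels. In control BMDMs the order of the mean FPKM was *Gbp2*, *Gbp3*, *Gbp9*, *Gbp7*, *Gbp5*, *Gbp8*, *Gbp6* and *Gbp4*. Neighbours in that order had ranges that did not overlap, except *Gbp8* with *Gbp6* and *Gbp6* with *Gbp4*. In CITED2-deficient BMDMs the first 5 kept their order, followed by *Gbp4*, *Gbp6* and *Gbp8*, and the ranges of *Gbp5* with *Gbp4* and of *Gbp4* with *Gbp6* overlapped. With the longest transcript as gene length, *Gbp6* came before *Gbp8* in control and before *Gbp4* in CITED2-deficient BMDMs, and the order of the first 5 was as before.

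Of the summed GBP FPKM, *Gbp7* held 12.9% ± 0.892 in control and 5.25% ± 0.309 in the CITED2-deficient group (SD, 3 libraries each). *Gbp2* held 33.8% ± 2.22 and 40.2% ± 1.39, and *Gbp4* 0.739% ± 0.192 and 3.13% ± 0.381. *Gbp6* held 1.11% ± 0.342 and 2.58% ± 0.272. Each of these 4 shares had groups that did not overlap, with an exact permutation p = 0.1 (0.2 after Benjamini-Hochberg adjustment over the 8 shares), the smallest this design allows. The shares of *Gbp3*, *Gbp5*, *Gbp8* and *Gbp9* overlapped between the genotypes, *Gbp3* at 26.6% ± 1.39 and 27.0% ± 0.932. Among the 28 pairs of members, the ratio of the FPKM values did not overlap between genotypes for 21 (smallest adjusted exact permutation p = 0.133). These 21 were every pair with *Gbp4*, *Gbp6* or *Gbp7*, and *Gbp2* with *Gbp3*, *Gbp8* and *Gbp9*. The pairs share members, so they are not independent, and the count among pairs of all genes was not computed. The 7 pairs that overlapped were *Gbp5* with *Gbp2*, *Gbp3*, *Gbp8* and *Gbp9*, *Gbp3* with *Gbp8* and *Gbp9*, and *Gbp8* with *Gbp9*.

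**Figure D3:**
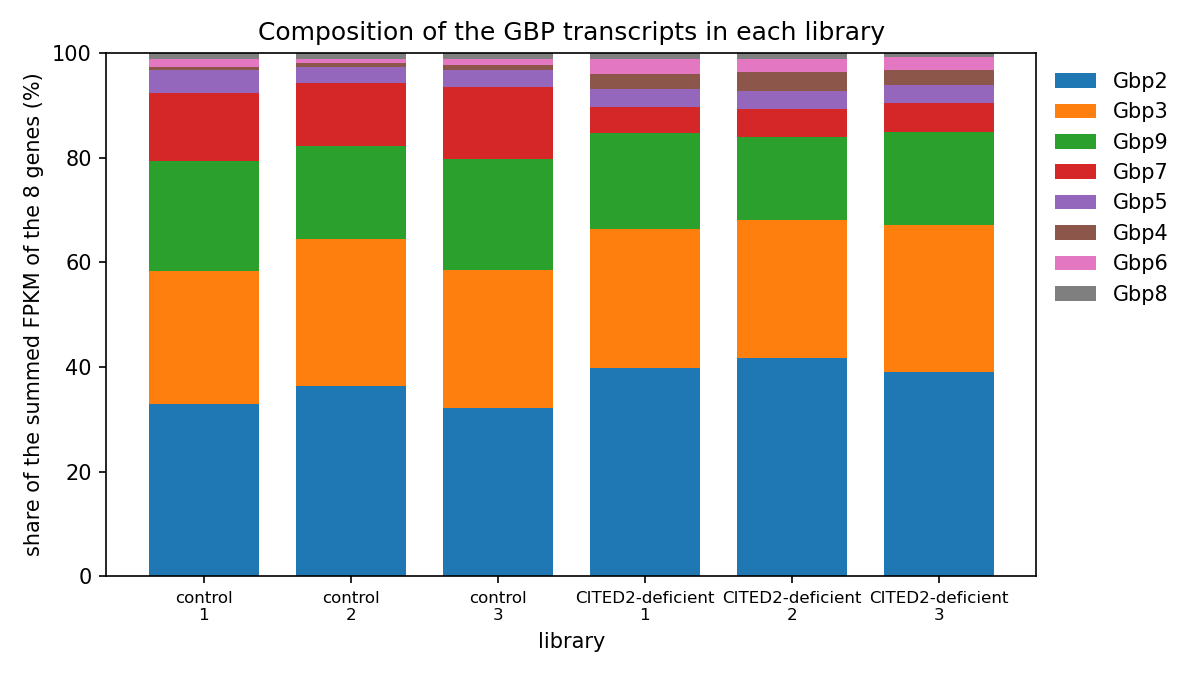
Share of the summed FPKM of the 8 GBP genes (%) held by each gene in each library, as stacked bars. The *Gbp7* band narrows from 12.9% to 5.25% on average and the *Gbp2* band widens from 33.8% to 40.2%.

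Within the CITED2-deficient group, replicate 2 was the highest for 8 of 8 members and had the smallest depth. Replicate 1 was the lowest for 6 members and replicate 3 for *Gbp6* and *Gbp8*. In the control group no library was highest for more than 3 members.

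The tested genes outside the family whose centred log2(FPKM + 1) profile was most like the members' mean profile over the 6 libraries were *Ddx60*, *Igtp*, *Gm4759*, *Fcgr4* and *C4b*. Their root mean square differences from it were 0.0453, 0.0506, 0.0704, 0.0706 and 0.0713. *Gm4759*, with a control mean of 0.00822 FPKM, passed the filter only through its CITED2-deficient values. *Ddx60*, an interferon-induced helicase, measured 9.13, 8.76 and 9.05 FPKM in control and 30.7, 38.4 and 34.2 FPKM in CITED2-deficient replicates. *Igtp*, an immunity-related GTPase, measured 12.0, 12.4 and 11.6 FPKM in control and 40.4, 49.2 and 45.1 FPKM in CITED2-deficient replicates. In both, replicate 2 was the highest of the CITED2-deficient group, which follows from choosing them by likeness to the members' profile.

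The remaining family genes were under the filter. *Gbp2b*, the mouse gene also called *Gbp1*, had 1, 0 and 0 fragments in control and 34, 43 and 44 in CITED2-deficient replicates. Scaled by depth this was a ratio of 90.0, with a counting interval of 15.9 to 3586, an exact binomial interval that covers counting error only. *Gbp10* had 0 fragments in every control library and 4, 5 and 7 in CITED2-deficient replicates. Set against 3 fragments over the control group and scaled by depth, this was 3.97-fold higher, without counting error of the CITED2-deficient fragments. The annotated pseudogene *Gbp11* had 0 fragments in control and 0, 5 and 2 in CITED2-deficient replicates. *Gbp2b* lies between *Gbp3* and *Gbp2*, and its promoter also held the ISRE letters (chr3:142594700-142594729, plus strand).

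Gbp2b: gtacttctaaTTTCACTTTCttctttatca

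The assignment of fragments to paralogs limits the value of *Gbp6* most. The coding sequences of *Gbp4*, *Gbp6*, *Gbp8* and *Gbp9* were 90.6% to 92.9% identical to each other, against 67.0% to 79.6% among the chromosome 3 members. *Gbp6* and *Gbp10* were 98.4% identical. Of all 75-base windows in the *Gbp6* transcripts, 67.3% also occurred in transcripts of another gene, mostly *Gm43302*, which spans *Gbp6* and *Gbp10*. The share was 11.3% for *Gbp7* and between 0.6% and 8.0% for the other 6 members. The values of *Gbp6* and *Gbp10* are therefore uncertain as values of single genes, and *Gbp8*, *Gbp9* and *Gbp4* share 60 to 61 exonic bases at their common first exon. For *Gbp2* the share of windows was 1.0%, in common with *Gbp2b*, and whether *Gbp2* fragments were counted in *Gbp2b* was not tested.

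The genes beside the clusters were read for comparison. Of 9 other protein-coding genes within 300 kb, 7 were tested, of which 3 fell and 4 did not pass, while 34.6% of all tested genes fell. *Pdlim5* and *Gtf2b*, on either side of the chromosome 3 cluster, had log2 fold changes of -0.13 and -0.19 (adjusted p = 0.00671 and 0.0320 from limma). Neither passed after median-ratio scaling (adjusted p = 0.486 and 0.286 from limma), and *Gtf2b* passed without control replicate 1 or CITED2-deficient replicate 2 but not without any other library (0.0700 to 0.106). *Abcg3*, next to *Gbp8*, fell by 1.02 on the log2 scale (SE 0.13, limma adjusted p = 0.000173). Its means were 2.15 ± 0.194 and 0.548 ± 0.0652 FPKM (SD, n = 3 each). *Pkn2*, *Zfp951*, *Lrrc8b* and *Lrrc8c* did not pass, with log2 fold changes of 0.11, -0.33, -0.01 and 0.14. *Kyat3* was under the filter, with means of 1.19 ± 0.390 and 0.483 ± 0.119 FPKM (SD, n = 3 each) and groups that did not overlap.

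**Figure D4:**
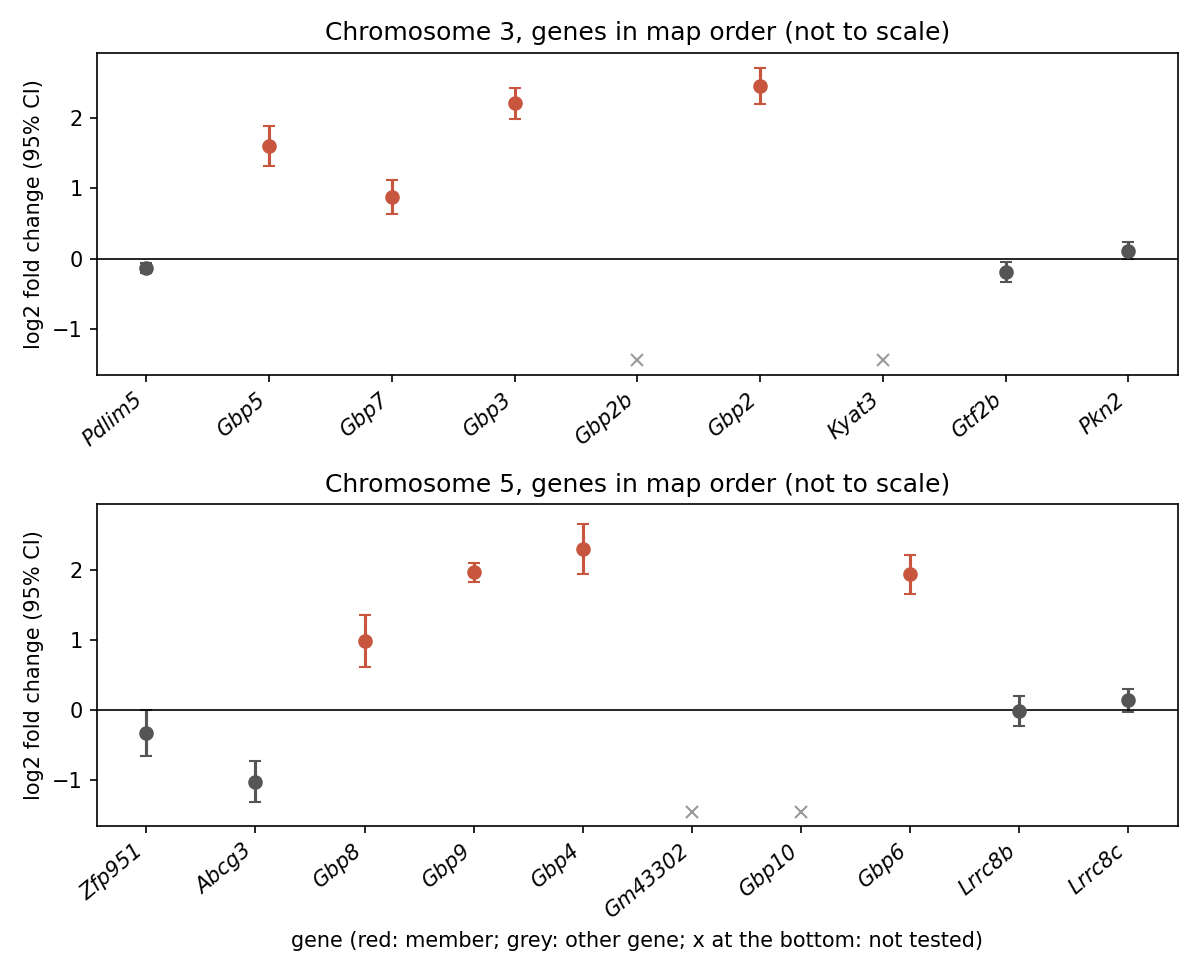
Log2 fold change on log2(FPKM + 1), with 95% confidence intervals, of the GBP genes (red) and the other genes within 300 kb (grey) in map order on chromosomes 3 and 5, with untested genes as crosses at the bottom. The members lie between 0.88 and 2.47, while the other tested genes lie between -1.02 and 0.14.

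The genes that induce GBPs were read from lists of the pathway. Of 9 interferon genes on the list, 2 had a row, and the others were not analysed here. *Ifnb1*, which encodes interferon-beta, had 0 fragments in each control library and 5, 2 and 5 fragments in CITED2-deficient replicates. Of 7 receptor and kinase genes, 1 rose and 4 fell, where 34.6% of all tested genes fell. The median log2 fold change was -0.11, near the -0.10 of all genes, and after median-ratio scaling 3 rose and 3 fell. *Ifngr1*, the ligand-binding chain of the interferon-gamma receptor, fell by 0.92 on the log2 scale, from 250.1 ± 3.59 to 131.7 ± 3.88 FPKM (SD, n = 3 each). *Ifnar1* and *Ifnar2*, the chains of the type I interferon receptor, had log2 fold changes of -0.27 and -0.30, and *Jak2*, a kinase of the interferon-gamma receptor, rose by 0.29. The fourth fall, *Jak1* at -0.11, did not pass after median-ratio scaling (adjusted p = 0.954 from limma).

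Of 8 transcription factors and transactivators of the interferon response, 7 rose and 1 did not pass, with a median log2 fold change of 0.92. For this list and the next, 16.7% of all tested genes rose and 34.6% fell. *Stat2* rose by 2.10, the class I transactivator *Nlrc5* by 1.55 and *Batf2* by 1.01. *Irf8* was the factor that did not pass and had a log2 fold change of -0.02. Of 6 feedback inhibitors, 3 rose and 1 fell. *Usp18*, the isopeptidase that restrains the type I interferon receptor, rose by 2.30 and *Socs1* by 0.74, while *Pias1* fell by 0.26. *Socs1* passed the filter only through its CITED2-deficient values. *Ptpn6*, at 0.09, did not pass with a replicate block (adjusted p = 0.0525 from limma) or, except without CITED2-deficient replicate 1, with a library left out (0.0799 to 0.125).

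Of 9 immunity-related GTPase genes, which act beside GBPs at vacuoles, 8 were tested and 8 rose, with a median log2 fold change of 2.00. Among all tested genes 16.7% rose. *Tgtp1* passed the filter only through its CITED2-deficient values, and the other 7 had control means of at least 1 FPKM. The largest rises were *Tgtp2* (2.95), *Iigp1* (2.61), *Gm12250* (2.27) and *Ifi47* (2.06). *Iigp1*, for example, measured 1.90, 2.10 and 1.83 FPKM in control and 16.0, 18.4 and 16.5 FPKM in CITED2-deficient replicates. *Tgtp1* and *Tgtp2* are near-identical copies, so their separate values are uncertain. Of 9 tested genes among 13 other dynamin superfamily genes, *Mx1* (2.84) and *Mx2* (1.84), the antiviral members, rose. That count was near the share of all tested genes that rose. *Dnm2*, which pinches off endocytic vesicles, had a log2 fold change of -0.10 that passed as deposited and did not pass after median-ratio scaling (adjusted p = 0.993 from limma) or without control replicate 1, control replicate 2 or CITED2-deficient replicate 3 (0.0585 to 0.0645). The other 6 did not pass.

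**Figure D5:**
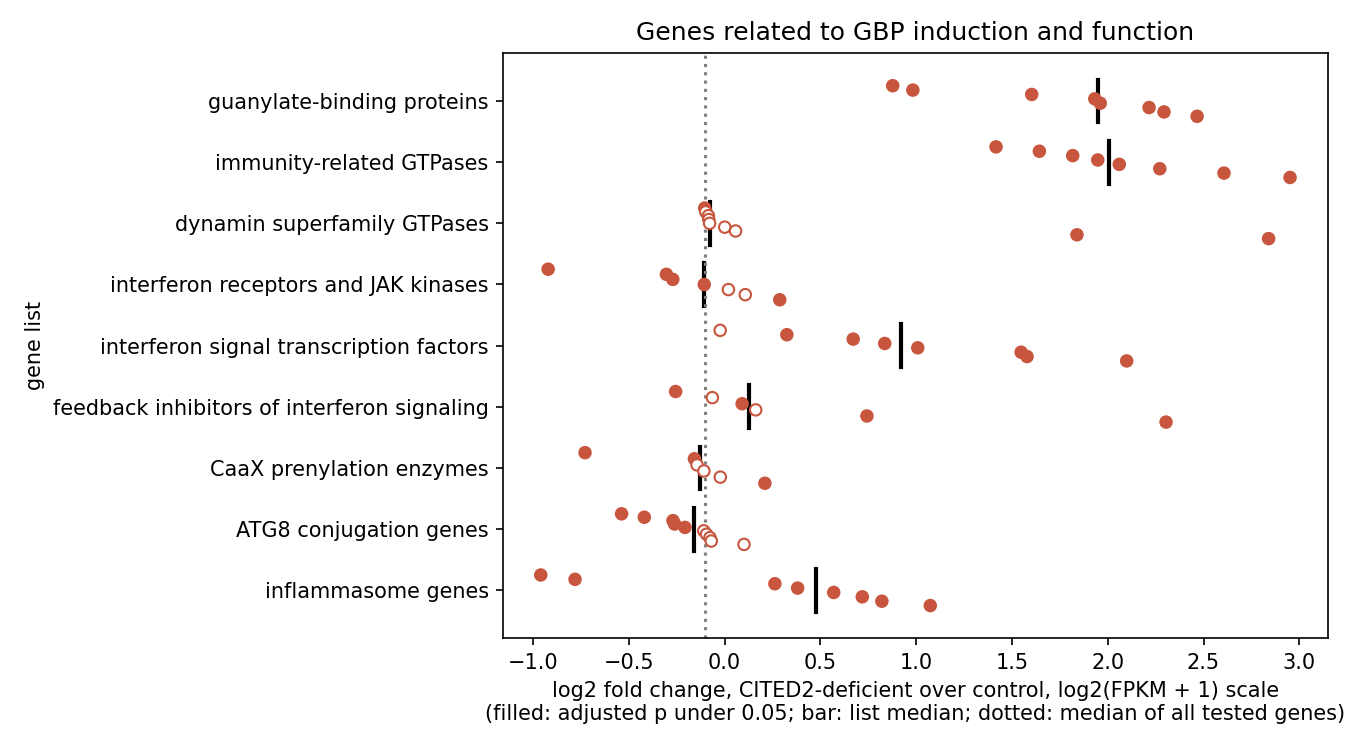
Log2 fold change on log2(FPKM + 1) of each tested gene (points, filled where adjusted p was under 0.05) in 9 lists related to GBP induction and function, with list medians as bars and the median of all tested genes, -0.10, as a dotted line. The GBP and immunity-related GTPase lists, with medians of 1.95 and 2.00, lie wholly to the right of zero.

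The genes that modify or assist GBPs were read in the same way. The coding sequences of *Gbp2* and *Gbp5* end in a CaaX cysteine codon, shown here in capitals in the last 12 coding bases before the stop codon.

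Gbp2: TGCactatactc
Gbp5: TGTgttataagc

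The other 6 members have no cysteine codon at that place. Of 6 CaaX prenylation and processing enzymes, 1 rose and 2 fell, with a median log2 fold change of -0.13, so both shares were near those of all tested genes (16.7% up and 34.6% down). *Fnta*, the alpha subunit shared by both enzymes that add a lipid to CaaX cysteines, fell by 0.73, from 61.1 ± 2.59 to 36.5 ± 2.14 FPKM (SD, n = 3 each). *Icmt*, the methyltransferase of the prenylated cysteine, rose by 0.21. The other fall, *Zmpste24*, which trims prenylated proteins, was -0.16 and did not pass after quantile normalization or median-ratio scaling or with the replicate block (adjusted p = 0.126, 0.392 and 0.0536 from limma). It passed without control replicate 1 or CITED2-deficient replicate 1 but not without any other library (limma adjusted p = 0.0667 to 0.0888). Of 10 genes of ATG8 proteins and their conjugation, 5 fell and 5 did not pass, with a median of -0.16, and after median-ratio scaling 4 fell and 1 rose. As deposited, the 5 that fell all encode ATG8 proteins, and the 5 that did not pass are the genes for their conjugation. Of all tested genes, 34.6% fell. The largest falls were in *Gabarapl1* (-0.54), *Map1lc3b* (-0.42), *Gabarapl2* (-0.27) and *Map1lc3a* (-0.26), which all encode ATG8 proteins, and *Gabarapl2* did not pass after median-ratio scaling (adjusted p = 0.0586 from limma). Of 8 inflammasome genes, 6 rose and 2 fell, with a median of 0.48. *Casp4*, which encodes the caspase-11 that senses lipopolysaccharide, rose by 1.07 and the DNA sensor *Aim2* by 0.82. *Nlrp3*, the sensor that GBP5 is known to act with, fell by 0.96 and its adaptor *Pycard* by 0.78.

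Marker genes of other cells were read beside these results. The 6 macrophage markers summed to 5288 to 5344 FPKM in control and 4942 to 5040 FPKM in CITED2-deficient libraries, and 1 rose (*Fcgr1*, by 1.48) and 4 fell, *Itgam* by 0.81, *Adgre1* by 0.32, *Csf1r* by 0.31 and *Mertk* by 0.26. The 7 fibroblast markers summed to 42.0 to 50.1 FPKM in control libraries but to 539.5, 169.9 and 170.5 FPKM in CITED2-deficient replicates 1 to 3, and 6 of 6 tested rose. Most of the replicate 1 sum was *Col1a1* at 304.5 FPKM and *Col1a2* at 175.1 FPKM. *Dcn* was highest in replicate 3 (6.83, 6.18 and 7.53 FPKM) and the other tested markers in replicate 1. *Lum*, untested, averaged 0.162 FPKM in control and 0.0998 FPKM in CITED2-deficient libraries. Among all tested genes 16.7% rose and 34.6% fell. Replicate 1, the library with the highest fibroblast sum, was the lowest of its group for 6 of the 8 GBP genes. Without it the summed GBP FPKM was 5.29 times the control level, and 7 of 7 tested members still rose, *Gbp8* falling under the filter. Among them, *Gbp4* and *Gbp6* passed the filter only through their CITED2-deficient values. The CITED2-deficient libraries that remained still had fibroblast sums of 169.9 and 170.5 FPKM, so the part of these cells in the GBP values was not tested. The 7 neutrophil markers summed to 590.2 to 635.0 FPKM in control and 543.8 to 657.5 FPKM in CITED2-deficient libraries, with 1 higher and 4 lower of 6 tested. These sums hide changes of single genes. *Mpo* fell by 2.54 on the log2 scale, *Elane* by 2.08, *Camp* by 0.99 and *S100a8* by 0.40, while *Ltf* rose by 0.90.

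Sums for lymphoid and mast cells were low. The 6 T cell markers gave 6.68 to 7.66 and 4.19 to 5.77 FPKM, nearly all of it *Cd4*, with *Cd3e* at most 0.216 FPKM in any library. The 5 NK cell markers gave 0.663 to 0.867 and 0.438 to 0.742 FPKM, the 5 B cell markers 2.14 to 3.29 and 2.07 to 2.82 FPKM, and the 3 mast cell markers listed 2.07 to 2.53 and 1.22 to 1.62 FPKM. The 6 dendritic cell markers gave 0.763 to 1.03 FPKM in control and 1.75 to 2.00 FPKM in CITED2-deficient libraries, of which *Clec9a* gave 0.429 ± 0.183 and 1.21 ± 0.182 FPKM (SD, n = 3 each), with *Flt3* at most 0.0582 FPKM. Their part in the GBP values was not tested.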

How the data were processed

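RNA from resting BMDMs was measured in 3 control and 3 CITED2-deficient libraries. Stranded libraries were made after ribosomal RNA depletion. The authors aligned the reads to mm10 with STAR, ran Cuffdiff with a GENCODE annotation and deposited its FPKM for each gene and library, with no version or release named in the sources used here. Because FPKM carry no depth, fragments were recovered with mean transcript lengths from GENCODE vM21. Of 22239 matched genes, 96.1% gave values that lay within 0.02 of whole fragments in every library. Replicates differed by more than sampling noise and were all kept.

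Values were compared on log2(FPKM + 1) in limma 3.58.1 (R 4.3.3) with a variance trend, for genes whose mean FPKM reached 1, at a Benjamini-Hochberg adjusted threshold of 0.05. The fit was checked on simulated data. Shares were compared with a two-sided exact permutation test. The authors' own test could not be run again without alignments. Alternatives were pseudocounts of 0.1 and 0.5, other filters (none, or a mean of 5 FPKM), quantile and median-ratio scaling, array weights, a fit without the trend, a block for the replicate number, leaving out each library, limma-voom on recovered fragments, an added fold threshold of 2 and groups that do not overlap. The longest transcript as gene length was added after the data had been seen.

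The members and the gene lists were chosen with earlier results of these data known. Named were all members, up to 4 genes per list with the largest changes among those that passed without overlap, *Cited2*, the 5 genes with the most similar profile and the genes within 300 kb. *Irf8*, *Jak1*, *Tgtp1*, *Il18*, *Gvin1*, *Gm43302* and the single marker genes lie outside this rule and were named after their values were seen. A gene under this rule is not reported here. List genes without a row were not analysed here. Windows of 75 bases stand in for reads, whose length was not found in the sources. Coding sequences were aligned globally, with identity over aligned bases.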

Additional observations from a re-analysis of the deposited data

How the results depend on the processing

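Across the 16 alternative fits the 8 members gave 122 fold changes, and all 122 had the same direction and passed the threshold, the smallest being 0.79 on the log2 scale and the largest adjusted p 0.00415 (limma). Where the filter was 1 FPKM, *Gbp4*, *Gbp6* and *Gbp8* were tested only through their CITED2-deficient values, so their passing there adds little. The count of 8 GBP genes past the threshold became 4 with a mean FPKM of at least 5, since only *Gbp2*, *Gbp3*, *Gbp7* and *Gbp9* were then tested, and 7 without CITED2-deficient replicate 1 or 2, when *Gbp8* fell under the filter. With a fold change of at least 2 also required it was 6. The 43 genes of the related lists past the threshold became 16 with that fold threshold and were 38 to 42 with each library left out. Of all 11687 tested genes, 5994 (51.3%) passed in either direction, and 435 rose and 180 fell with that fold threshold. With each library left out, 5226 to 5467 of all tested genes passed. *Il18*, an inflammasome gene, passed without control replicate 2 but not without any other library (limma adjusted p = 0.0565 to 0.135). Of the 8 shares, 4 did not overlap in the main comparison. Leaving out a library can only keep or raise that count, which was then 4 to 5, so it could not test these shares. With a replicate block 8 GBP genes and 41 related genes passed, beside 5708 of all 11687 tested genes. Over all tested genes the replicate numbers showed no pairing of the libraries. Same-numbered control and CITED2-deficient libraries had deviations correlated at 0.0138, 0.00784 and 0.0402, and control replicates 1 and 2 correlated more with another number. With 3 libraries per group this cannot exclude a pairing. With the block the standard error fell from 0.113 to 0.0497 for *Gbp2* and from 0.0967 to 0.0508 for *Gbp3*. It fell less for *Gbp4*, *Gbp7* and *Gbp8* and rose for *Gbp5*, *Gbp6* and *Gbp9*. Quantile normalization and median-ratio scaling moved the median of all genes from -0.10 to -0.05 and -0.0069, so the directions of small changes depend on scaling. The low control fragments of *Gbp4*, *Gbp6* and *Gbp8* limit the precision of their folds.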

Other observations

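*Gvin1*, which encodes a very large interferon-inducible GTPase, was under the filter and not tested, and it was noticed after its values were seen. It measured 1.44 ± 0.0553 FPKM (SD, n = 3) in control libraries and 0.0442, 0.0348 and 0.0689 FPKM in CITED2-deficient replicates 1 to 3, so its groups did not overlap and the CITED2-deficient libraries were the lower ones, in contrast to the 8 GBP genes and the 8 tested immunity-related GTPase genes. *Gm4759*, on the same strand of chromosome 7 (chr7:106417848-106424469, with *Gvin1* at chr7:106156556-106215326), went the other way. It had 0, 1 and 2 fragments in control and 445, 487 and 415 in CITED2-deficient replicates. How fragments were assigned between these genes was not tested.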
